A study of Mus musculus with 11 samples.

Results

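Vimentin (Vim), the scaffold gene Ahnak, S100a4, S100a6, S100a10, S100a11, galectin-1 (Lgals1), annexin A2 (Anxa2), Crip1 and Emp3 form a set of 10 genes. The set was chosen by name, with earlier results of these data known. Each gene was found by its Ensembl identifier among the 48795 genes of the deposited expression table. RNA was sequenced from spleen B cells of 8 to 12 week old female mice, 10 days after intravenous immunization with sheep red blood cells (SRBCs). The light zone (LZ) B cells of the germinal center (GC) were sorted as B220+ CD138neg IgDneg cells that were CD38neg and Fas+, CD86high and CXCR4low, from 4 Myc WT mice and from 4 Myc VD mice, and memory B cells (MBCs) were sorted from the same B220+ CD138neg IgDneg gate as CD38+ and CD273+ cells from 3 Myc WT mice. Myc VD mice carry the V394D change in the endogenous Myc gene, which disrupts the binding of MYC to MIZ1 and leaves its binding to MAX. MBC libraries 1, 3 and 4 come from the same mice as Myc WT LZ libraries 1, 3 and 4. The mouse labels share one prefix in Myc WT mice 1 to 3, another in Myc WT mouse 4 and a further one in all Myc VD mice, so that genotype and whatever the prefix marks cannot be told apart. The values are TPM, a unit of transcript abundance scaled by transcript length and by the total of the library, so that levels can be compared between genes, and the number of reads behind them is unknown.

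Vimentin is the intermediate filament protein of mesenchymal cells and of many lymphocytes, and AHNAK is a very large scaffold protein at the inner side of the plasma membrane. S100 proteins are small calcium-binding proteins, several of which pair with an annexin, a calcium-dependent membrane-binding protein. S100A10 and annexin A2 form a complex to which AHNAK can bind, and S100A11 is a partner of annexin A1. Genes of this kind are often listed as features of memory and effector lymphocytes.

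In the GRCm38 build with GENCODE M21 annotation, each of the 10 symbols belonged to a single protein-coding gene. Vim (ENSMUSG00000026728) lies at chr2:13573927-13582826 on the forward strand and Ahnak (ENSMUSG00000069833) at chr19:8989284-9076914 on the forward strand. The 4 S100 genes share chromosome 3, all on the forward strand, within 2960.9 kb. S100a4 (ENSMUSG00000001020) lies at chr3:90603771-90606045 and S100a6 (ENSMUSG00000001025) at chr3:90612882-90624181. S100a11 (ENSMUSG00000027907) lies at chr3:93520488-93526287 and S100a10 (ENSMUSG00000041959) at chr3:93555080-93564643. Anxa2 (ENSMUSG00000032231) lies at chr9:69453620-69491795 and Lgals1 (ENSMUSG00000068220) at chr15:78926725-78930465, both on the forward strand. Crip1 (ENSMUSG00000006360) lies at chr12:113146316-113153879 on the forward strand, and Emp3 (ENSMUSG00000040212) at chr7:45918023-45921404 on the reverse strand.

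RefSeq windows of GRCm38.p6 before the annotated start were matched for 8 of the 10 genes, in 9 windows since Emp3 has more than one start. S100a10 and Lgals1 were not matched. The start is that of RefSeq, which can differ from the GENCODE gene start given above. The Vim window lies wholly within the GENCODE span of its gene, and the S100a11 and Anxa2 windows end inside theirs. The 250 bases before the start are shown 5′ to 3′ for Vim, Ahnak and S100a11, which were higher in every MBC library than in any LZ library, and for Anxa2, which was lower in every MBC library than in any Myc WT LZ library. Capitals mark matches on either strand to TATAAA, to the AP-1 motif TGANTCA, to the E-box CACGTG or to the CACCC box CCNCNCCC, whose matches may overlap each other.
Vim, chr2:13574061-13574310, forward strand: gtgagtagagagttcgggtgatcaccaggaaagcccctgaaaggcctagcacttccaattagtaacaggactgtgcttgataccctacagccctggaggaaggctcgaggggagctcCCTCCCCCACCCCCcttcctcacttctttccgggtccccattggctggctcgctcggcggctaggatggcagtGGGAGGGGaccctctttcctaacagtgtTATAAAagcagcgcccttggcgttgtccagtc
Ahnak, chr19:8989034-8989283, forward strand: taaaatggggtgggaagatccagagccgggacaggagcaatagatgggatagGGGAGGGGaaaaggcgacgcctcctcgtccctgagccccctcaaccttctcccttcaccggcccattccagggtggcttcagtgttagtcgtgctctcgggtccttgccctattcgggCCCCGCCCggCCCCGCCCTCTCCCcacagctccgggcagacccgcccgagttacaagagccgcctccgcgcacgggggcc
S100a11, chr3:93520246-93520495, forward strand: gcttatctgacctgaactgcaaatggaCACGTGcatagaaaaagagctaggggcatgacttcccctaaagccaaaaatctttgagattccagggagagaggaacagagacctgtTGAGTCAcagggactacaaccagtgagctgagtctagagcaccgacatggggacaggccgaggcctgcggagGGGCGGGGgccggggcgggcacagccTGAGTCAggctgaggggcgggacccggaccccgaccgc
Anxa2, chr9:69453433-69453682, forward strand: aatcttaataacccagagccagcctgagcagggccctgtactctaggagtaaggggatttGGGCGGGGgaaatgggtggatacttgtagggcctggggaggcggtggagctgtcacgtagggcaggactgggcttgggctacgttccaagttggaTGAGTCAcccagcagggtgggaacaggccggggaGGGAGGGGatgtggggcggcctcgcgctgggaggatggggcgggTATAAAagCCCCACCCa
The Vim window held TATAAA beginning 32 bases before the start and the Anxa2 window held it 17 bases before the start. The S100a11 window held the AP-1 motif at 136 and at 38 bases and the E-box, the motif that MYC and MAX bind, at 223 bases before the start. The Anxa2 window held the AP-1 motif at 95 bases. The Ahnak window held CACCC boxes only. Over all 9 windows of the set, the E-box was in 1 and in 6.02% of the 32851 mouse windows of the same length, the AP-1 motif was in 2 and in 6.75% of all windows, TATAAA was in 4 and in 12.4%, and the CACCC box was in 8 and in 45.9%. These matches describe the letters of the windows and were not tested for binding.

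Across libraries, ribosomal RNA genes took 35.7 to 44.5% of TPM in Myc WT LZ B cells, 44.1 to 61.3% in Myc VD LZ B cells and 36.1 to 37.5% in MBCs. Between 15460 and 19537 genes were above 0 in Myc WT LZ libraries, 13169 to 16421 in Myc VD LZ libraries and 11527 to 16040 in MBC libraries. The sorted cell types carried their markers, with a sum over 7 GC markers of 744.64 to 1253.16 TPM in Myc WT LZ, 725.58 to 1209.22 TPM in Myc VD LZ and 152.29 to 267.47 TPM in MBC libraries, and a sum over 5 B cell markers of at least 1599.03 TPM in each library. The sum over 6 markers of MBCs and their sort was 386.8 to 546.82 TPM in MBC and 32.75 to 37.33 TPM in Myc WT LZ libraries. Of these, 4 were higher in every MBC library than in any Myc WT LZ library, while Nt5e and Zbtb32 overlapped. The sum over 4 naive follicular markers, Ighd among them, was also higher in MBCs, at 935.91 to 1057.81 TPM against 364.26 to 367.71 TPM in Myc WT LZ B cells. MBC library 3 held 4298.2 TPM of 4 erythroid genes, against 4.74 and 21.77 TPM in the other MBC libraries.

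The 10 genes together held 0.0889 to 0.1% of the TPM outside ribosomal RNA in Myc WT LZ libraries, 0.0572 to 0.105% in Myc VD LZ libraries and 0.165 to 0.192% in MBC libraries. The makeup of that sum differed more than its size. Crip1, a small LIM domain protein, was 62.1 to 72.1% of the sum in Myc WT LZ libraries, 42.8 to 51.7% in Myc VD LZ libraries and 19.4 to 31.0% in MBC libraries, and these 3 ranges did not overlap. Vim was 7.64 to 14.2% of the sum in Myc WT LZ and 32.5 to 38.7% in MBC libraries, and S100a11 was 5.65 to 10.9% and 23.7 to 28.3%.

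**Figure D1:**
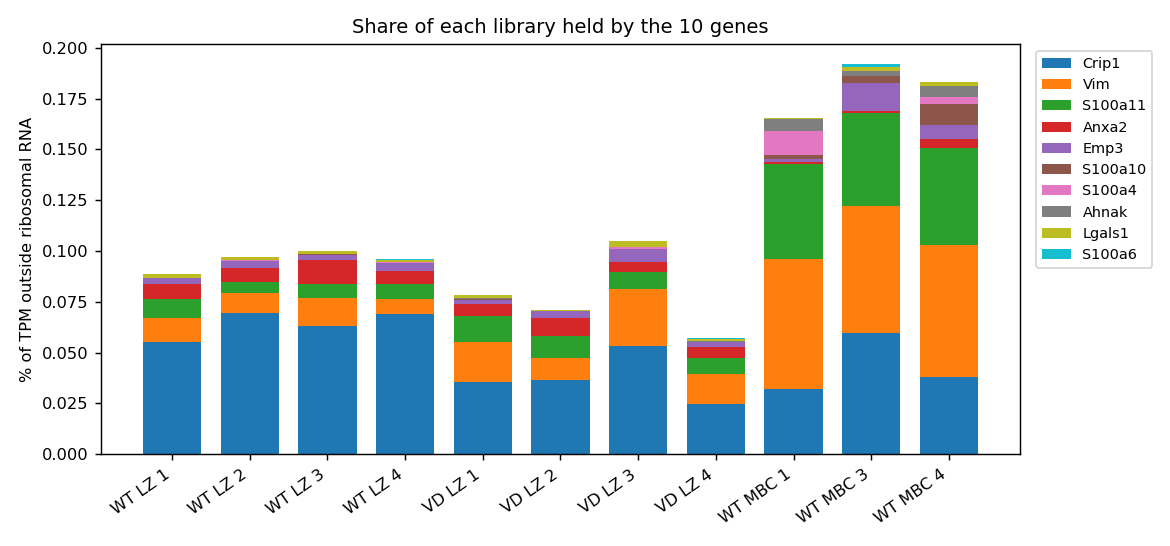
Each bar is 1 library (Myc WT LZ, Myc VD LZ and Myc WT MBC) and its height is the share, in percent, of TPM outside ribosomal RNA held by the 10 genes, with a color for each gene. Crip1 fills most of the bars of the 4 Myc WT LZ libraries, and Vim and S100a11 together exceed Crip1 in the 3 MBC libraries.

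In Myc WT LZ B cells, mean TPM ranked Crip1 first at 381 ± 43.6 (SD, n = 4), then Vim at 64.6 ± 21, Anxa2 at 49.6 ± 18.4 and S100a11 at 42.6 ± 9.69. Emp3 followed at 18.1 ± 2.01 and Lgals1 at 8.56 ± 1.45, and S100a4, S100a10, S100a6 and Ahnak had means of 1.16 TPM or below. The ranges of Vim, Anxa2 and S100a11 overlapped between neighbors in this order, as did those of the 4 lowest genes, while Crip1 and Vim, S100a11 and Emp3, Emp3 and Lgals1, and Lgals1 and S100a4 did not overlap. In MBCs the order of mean TPM was Vim at 403 ± 13.1 (SD, n = 3), S100a11 at 294 ± 9.03, Crip1 at 272 ± 89.2, Emp3 at 46.5 ± 38.4, S100a10 at 32.7 ± 29.3, S100a4 at 31.5 ± 38.3, Ahnak at 28.7 ± 12.3, Anxa2 at 14.6 ± 13, Lgals1 at 9.54 ± 7.26 and S100a6 at 3.13 ± 5.27. Only Vim against S100a11 and Crip1 against Emp3 had separate ranges among neighbors in MBCs. In Myc VD LZ B cells the order began with Crip1 at 184 ± 66.9 TPM (SD, n = 4), Vim at 88.5 ± 39.2 and S100a11 at 49.5 ± 17.5, and the ranges of all neighbors overlapped.

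**Figure D2:**
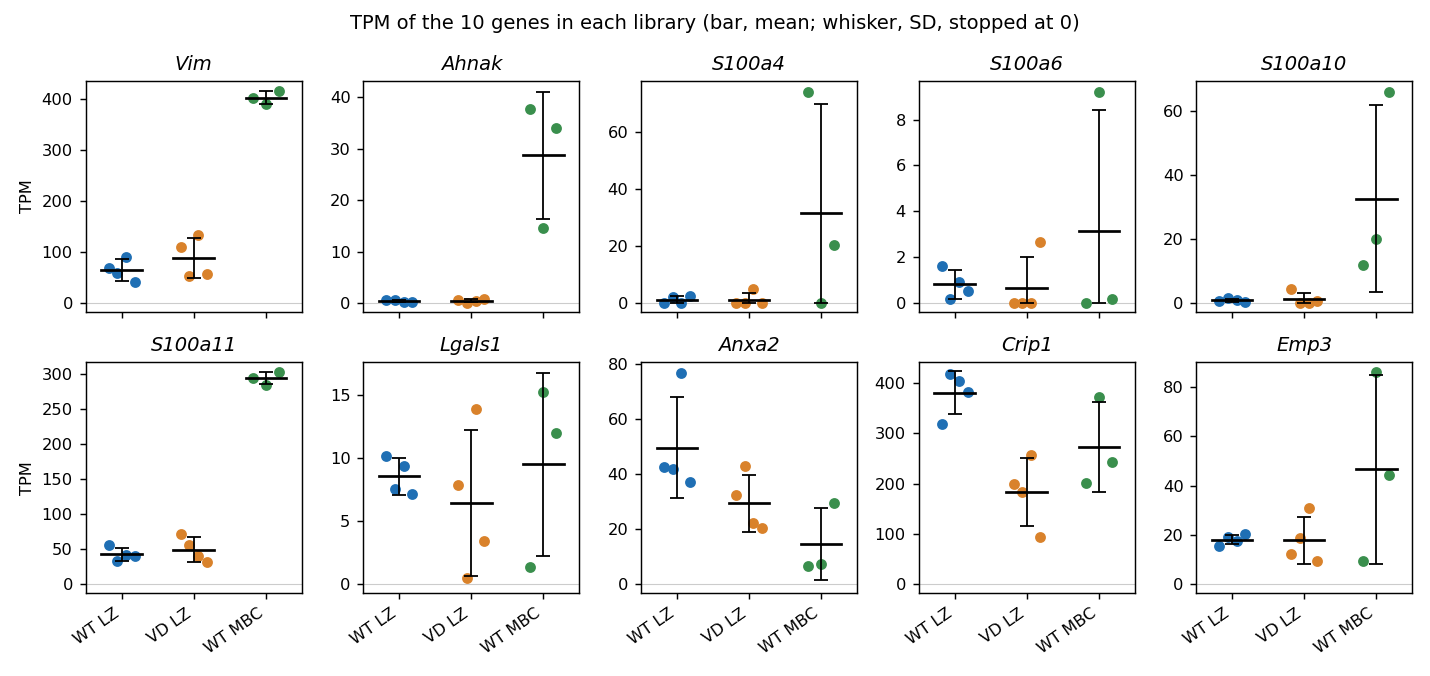
TPM (vertical axis, a separate scale in each panel) of each of the 10 genes in the 4 Myc WT LZ, 4 Myc VD LZ and 3 Myc WT MBC libraries, with 1 point a library, a bar at the mean and a whisker of 1 SD that stops at 0. The MBC points of Vim, Ahnak, S100a10 and S100a11 lie above all LZ points, the Anxa2 points of MBCs lie below all Myc WT LZ points, and the Crip1 points of Myc VD lie below all Myc WT LZ points.

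MBCs were compared with LZ B cells of Myc WT mice to ask which of the 10 genes differ between these sorted cell types. Vim, Ahnak, S100a10 and S100a11 were higher in MBCs, from about 6-fold for Vim to about 65-fold for Ahnak, and none of the 10 genes passed the test as lower. With limma on log2(TPM + 1), 4 of the 10 genes were called higher and 0 lower, beside 4.17% of the 13245 genes tested called higher and 5.04% called lower. In a fit that pairs both cell types by mouse and leaves out the unpaired Myc WT LZ library 2, 3 of the 10 were called higher and S100a10 was not. The median difference over the 10 genes was 1.77 on the log2 scale, against -0.14 over all genes tested. Of the 7 genes whose Myc WT LZ mean reached 1 TPM, 2 were called higher, Vim and S100a11. The other 3 genes, Ahnak, S100a6 and S100a10, passed the filter on low values only through their MBC libraries, so the count of 4 and the median lean on genes that had to differ in order to be tested. The 10 genes were also chosen with earlier results of these data known, so the shares over all genes do not make these counts a test of the set. The ranges of MBC and Myc WT LZ libraries did not overlap for 4 genes in the higher direction and for 1 in the lower, beside 11.8% and 14.4% of all genes tested.

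Vim stood at 67.95, 58.76, 91.12 and 40.59 TPM in Myc WT LZ libraries 1 to 4 and at 402.39, 390.47 and 416.68 TPM in MBC libraries 1, 3 and 4. Every MBC library was above every LZ library, and the MBC libraries lay close together. The mean TPM of Vim was 6.24 times that of LZ B cells, a difference of 2.68 on the log2(TPM + 1) scale (SE 0.28, 95% interval 2.04 to 3.32, adjusted p = 0.00199 by limma).

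S100a11, the S100 gene with the highest level, stood at 56.02, 32.93, 41.56 and 39.92 TPM in Myc WT LZ libraries and at 293.68, 284.50 and 302.56 TPM in MBC libraries. The groups did not overlap, and mean TPM was 6.89 times higher in MBCs, with a log2 difference of 2.78 (SE 0.25, 95% interval 2.23 to 3.34, adjusted p = 0.00114 by limma). The spread of Vim and S100a11 among MBC libraries was 3.25% and 3.08% of their means, and their TPM ratio was 1.37, 1.37 and 1.38 in the 3 MBC libraries against 1.02 to 2.19 in Myc WT LZ libraries. S100a11 has 5 processed pseudogenes whose transcripts align to it at 90% identity or more, and Gm12854, at 99.0% identity over 297 bases, was listed at up to 109.42 TPM, so reads could have been split between them. The sum of S100a11 and these copies was 74.76, 37.83, 46.91 and 51.64 TPM in Myc WT LZ libraries and 408.46, 287.70 and 331.93 TPM in MBC libraries, which did not overlap. None of the other 9 genes had a near-identical transcript with a value above 0.

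Ahnak stood at 0.62, 0.58, 0.30 and 0.27 TPM in Myc WT LZ libraries and at 37.63, 14.63 and 33.92 TPM in MBC libraries. Each LZ library was below 1 TPM and the lowest MBC library was library 3. The ratio of mean TPM was 64.9, with a log2 difference of 4.27 (SE 0.51, 95% interval 3.11 to 5.42, adjusted p = 0.00285 by limma), and the log scale with its pseudocount of 1 understates a change from so low a level.

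S100a10, the S100 partner of annexin A2, stood at 0.52, 1.53, 1.11 and 0.29 TPM in Myc WT LZ libraries and at 11.79, 20.15 and 66.22 TPM in MBC libraries. The groups did not overlap, and MBC library 4 was the highest. The ratio of mean TPM was 37.9 and the log2 difference was 3.87 (SE 0.65, 95% interval 2.41 to 5.33, adjusted p = 0.0101 by limma). The fit with the mouse as a block pairs both cell types within each mouse and leaves out Myc WT LZ library 2, which has no pair. There the difference was 4.03 and the adjusted p by limma was 0.0542, so that S100a10 was no longer called. Vim, Ahnak and S100a11 were called in that fit too. Without library 2 and with no block, the difference of S100a10 was also 4.03, and the adjusted p by limma was 0.0346.

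Anxa2 stood at 42.49, 41.95, 76.88 and 37.01 TPM in Myc WT LZ libraries and at 6.76, 7.35 and 29.59 TPM in MBC libraries. All MBC libraries were below all LZ libraries, and MBC library 4 lay nearest to them. The log2 difference was -1.95 (SE 0.53, 95% interval -3.15 to -0.75, adjusted p = 0.0536 by limma), which did not pass the threshold of 0.05. Without MBC library 4 the difference was -2.59 and the adjusted p was 0.0061 by limma. In the mice with the shared label prefix, mice 1 to 3, it was -2.71 with an adjusted p of 0.0216. With the mouse as a block it was -2.01 with an adjusted p of 0.159, and without MBC library 1 or 3 it was -1.60 and -1.65 with adjusted p of 0.107 and 0.0872. Anxa2 was not called in 12 of the 19 alternatives. The TPM ratio of S100a10 to Anxa2 was 0.00784 to 0.0365 in Myc WT LZ libraries and 1.74, 2.74 and 2.24 in MBC libraries.

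S100a4 was listed at 0, 2.24, 0 and 2.38 TPM in Myc WT LZ libraries and at 74.20, 0 and 20.37 TPM in MBC libraries. MBC libraries 1 and 4 were above all LZ libraries and MBC library 3 was at 0. The log2 difference of 2.69 (SE 1.32, adjusted p = 0.228 by limma) did not pass the test, and it was 4.46 with an adjusted p of 0.0122 without MBC library 3 and 1.35 with an adjusted p of 0.478 without MBC library 1. S100a6, its neighbor on the chromosome, stood at 1.63, 0.17, 0.93 and 0.54 TPM in Myc WT LZ libraries and at 0, 9.22 and 0.18 TPM in MBC libraries, the reverse pattern among MBC libraries. Its log2 difference was 0.40 (SE 0.84, adjusted p = 0.8 by limma).

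Emp3, a membrane protein of the PMP22 family, stood at 15.70, 19.08, 17.46 and 20.33 TPM in Myc WT LZ libraries and at 9.29, 86.01 and 44.29 TPM in MBC libraries. MBC library 1 lay below and MBC libraries 3 and 4 above all LZ libraries. The log2 difference was 0.85 (SE 0.64, adjusted p = 0.432 by limma), and it was 1.72 with an adjusted p of 0.0292 without MBC library 1 and 0.18 with an adjusted p of 0.84 without MBC library 3. Lgals1, which encodes a galactoside-binding lectin, stood at 10.19, 7.54, 9.35 and 7.16 TPM in Myc WT LZ libraries and at 1.36, 15.22 and 12.04 TPM in MBC libraries. MBC library 1 was again the lowest of the MBC libraries, and the log2 difference was -0.26 (SE 0.68, adjusted p = 0.845 by limma) with all libraries and 0.62 without MBC library 1.

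Crip1 stood at 319.46, 418.02, 404.51 and 383.05 TPM in Myc WT LZ libraries and at 201.73, 372.63 and 242.96 TPM in MBC libraries. MBC library 3 overlapped the LZ range and the other MBC libraries were below it. The log2 difference was -0.52 (SE 0.24, 95% interval -1.08 to 0.03, adjusted p = 0.204 by limma), and it was -0.77 with an adjusted p of 0.0493 without MBC library 3 and -0.33 with an adjusted p of 0.382 without MBC library 1. With 3 libraries against 4, the exact two-sided permutation test over libraries cannot go below 0.0286, the value that Vim, Ahnak, S100a10, S100a11 and Anxa2 reached.

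**Figure D3:**
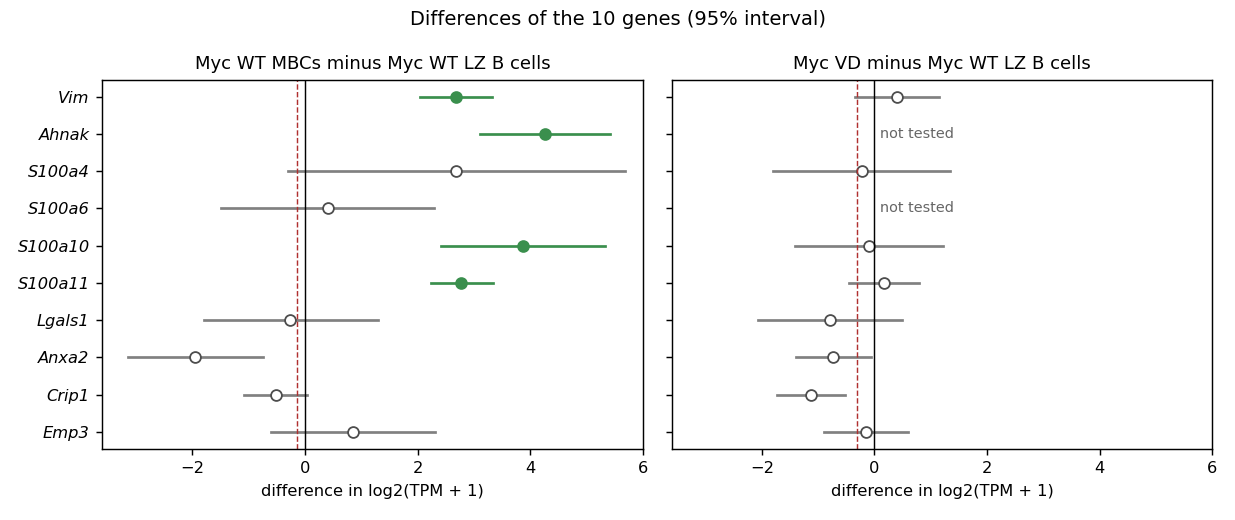
Difference in log2(TPM + 1) of each of the 10 genes between Myc WT MBCs and LZ B cells (left) and between Myc VD and Myc WT LZ B cells (right), as points with 95% intervals from limma, filled and green where the adjusted p is below 0.05, with a dashed line at the median over all genes tested. Vim, Ahnak, S100a10 and S100a11 are filled at 2.68, 4.27, 3.87 and 2.78 in the left panel and no gene is filled in the right panel, where Crip1 lies farthest to the left at -1.13.

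Some of these genes are also expressed in myeloid cells, and myeloid markers were higher in the MBC libraries. The sum over 9 myeloid markers was 7.27 to 16.73 TPM in Myc WT LZ libraries, 0 to 24.48 TPM in Myc VD LZ libraries and 100.92, 49.68 and 255.10 TPM in MBC libraries 1, 3 and 4. For 3 of the 9 markers, Csf1r, Itgam and Tyrobp, every MBC library was above every Myc WT LZ library, and the neutrophil genes S100a8 and S100a9 were listed at 0 in all MBC libraries. Lyz2 was at 0.15, 31.16 and 135.59 TPM and Fcer1g at 53.76, 0 and 62.28 TPM in MBC libraries 1, 3 and 4. Across MBC libraries the sum ran from 49.68 to 255.10 TPM while Vim ran from 390.47 to 416.68 and S100a11 from 284.50 to 302.56 TPM. Summed with its near-identical copies, S100a11 stood at 408.46, 287.70 and 331.93 TPM in MBC libraries 1, 3 and 4. Ahnak stood at 37.63, 14.63 and 33.92 TPM in the same libraries, lowest where the myeloid sum was lowest. S100a10 was highest in the library with the highest myeloid sum, at 66.22 TPM beside 255.10, and stood at 11.79 TPM beside 100.92 and at 20.15 TPM beside 49.68. Sums over 7 T cell markers were 33.09 to 68.44 TPM in Myc WT LZ libraries and 26.13, 0 and 36.08 TPM in MBC libraries, and sums over 4 NK cell markers were 0 to 3.67 TPM and 0, 0 and 5.73 TPM. The part of myeloid RNA in the differences was not tested. In a bulk sample, a change in the number of cells that express a gene and a change in RNA per cell cannot be told apart.

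**Figure D4:**
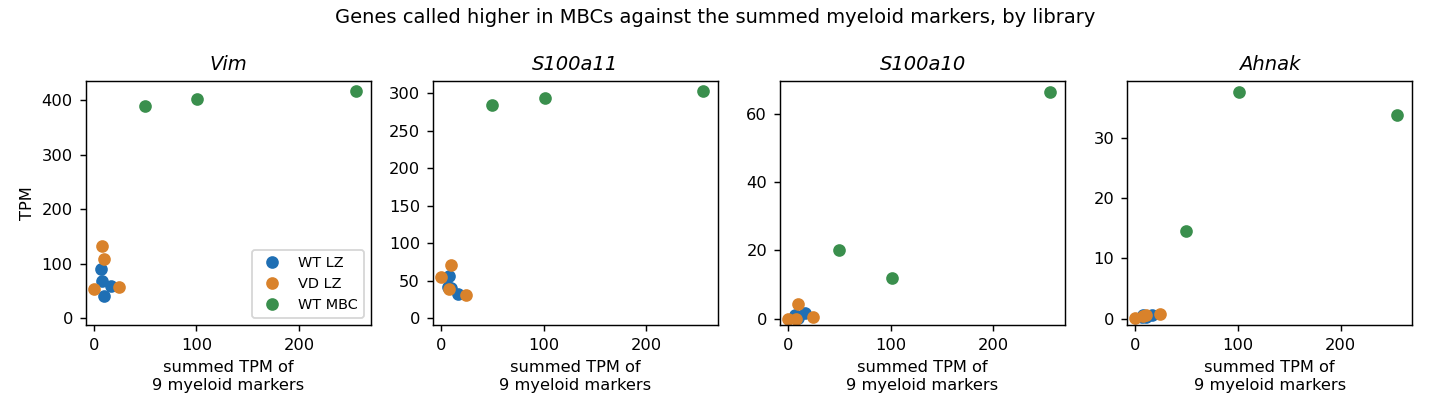
TPM of Vim, S100a11, S100a10 and Ahnak (vertical axes, separate scales) against the summed TPM of 9 myeloid markers (horizontal axis) in each library, colored by group. The MBC libraries lie at 49.68, 100.92 and 255.10 TPM of myeloid markers, and the points of Vim and S100a11 stay nearly level between them. S100a11 is drawn without its near-identical copies. Among MBC libraries the Ahnak point is lowest at 49.68 TPM and the S100a10 point is highest at 255.10 TPM of myeloid markers.

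Related genes were taken as a list of 70 paralogs and cytoskeletal partners, of which 39 were tested for MBCs against LZ B cells, while 12 had a value of 0 throughout. In MBCs, 8 were called higher and 2 lower, where all genes tested gave 4.17% and 5.04%. This list too was chosen with earlier results of these data known, so its counts are no test of the list. The count called higher was 3, 2, 4 and 3 when Myc WT LZ library 1, 2, 3 or 4 was left out. It was 2 in the fit with the mouse as a block, which leaves out Myc WT LZ library 2 as well. The count called lower was 0 without Myc WT LZ library 1, 2 or 3 and without MBC library 1, 1 without Myc WT LZ library 4 or MBC library 3, and 0 with the block. Anxa6 and Capg were called higher under all 19 alternatives run, the leave-one-out fits included. MBC libraries 1, 3 and 4 had myeloid marker sums of 100.92, 49.68 and 255.10 TPM. In the same order Capg stood at 128.34, 81.90 and 174.41 TPM and Anxa6 at 129.21, 135.95 and 206.38 TPM. The part of myeloid RNA in these differences was not tested.

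Among the other annexins, 2 of the 7 tested of 11 listed were called higher and 0 lower. Anxa6, an annexin with a duplicated core, stood at 7.96, 7.62, 12.48 and 8.42 TPM in Myc WT LZ libraries and at 129.21, 135.95 and 206.38 TPM in MBC libraries. The groups did not overlap, and the log2 difference was 3.96 (SE 0.32, adjusted p = 0.00075 by limma). The TPM ratio of Anxa6 to Anxa2 was 0.162 to 0.228 in Myc WT LZ libraries and 19.1, 18.5 and 6.97 in MBC libraries, so the more abundant of these annexins was Anxa2 in each LZ library and Anxa6 in each MBC library. Anxa4 had a log2 difference of 1.65 (adjusted p = 0.0273 by limma), from 5.42 to 8.97 TPM in LZ libraries to 22.40 to 27.24 TPM in MBC libraries. Its adjusted p by limma was 0.0823, 0.112, 0.0976 and 0.071 without Myc WT LZ library 1, 2, 3 or 4. With the mouse as a block, which also leaves out library 2, it was 0.269. Anxa1, the annexin partner of S100A11, stood at 2.49 to 4.08 TPM in LZ libraries and at 1.45, 0 and 4.63 TPM in MBC libraries, and its log2 difference was -0.75 (adjusted p = 0.492 by limma), which was -0.12 without MBC library 3 and -1.37 without MBC library 4. Anxa5, at 1.08 to 5.36 TPM in LZ libraries and 4.44, 5.60 and 32.03 TPM in MBC libraries, had a difference of 1.67 (adjusted p = 0.184 by limma), which was 0.85 without MBC library 4.

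Of 10 other S100 genes only S100a13 could be tested, with a log2 difference of -1.66 (adjusted p = 0.2 by limma), which was -2.53 with an adjusted p of 0.0228 without MBC library 4 and -1.02 with an adjusted p of 0.335 without MBC library 3. Among 7 other galectins, 4 were tested and 1 was called higher. That gene, Lgals9, stood at 5.73 to 10.93 TPM in LZ libraries and at 58.70, 22.57 and 34.63 TPM in MBC libraries, a log2 difference of 2.03 (adjusted p = 0.0265 by limma). Its adjusted p by limma was 0.0835, 0.0767, 0.0698 and 0.0807 without Myc WT LZ library 1, 2, 3 or 4 and 0.051 without MBC library 1. With the mouse as a block, which also leaves out Myc WT LZ library 2, it was 0.14. Lgals3 stood at 0.22 to 1.53 TPM in LZ libraries and at 1.82, 18.32 and 4.74 TPM in MBC libraries without overlap, and its difference of 1.93 did not pass the test (adjusted p = 0.118 by limma), while it was 2.57 with an adjusted p of 0.0478 without MBC library 1 and 1.18 with an adjusted p of 0.178 without MBC library 3.

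**Figure D5:**
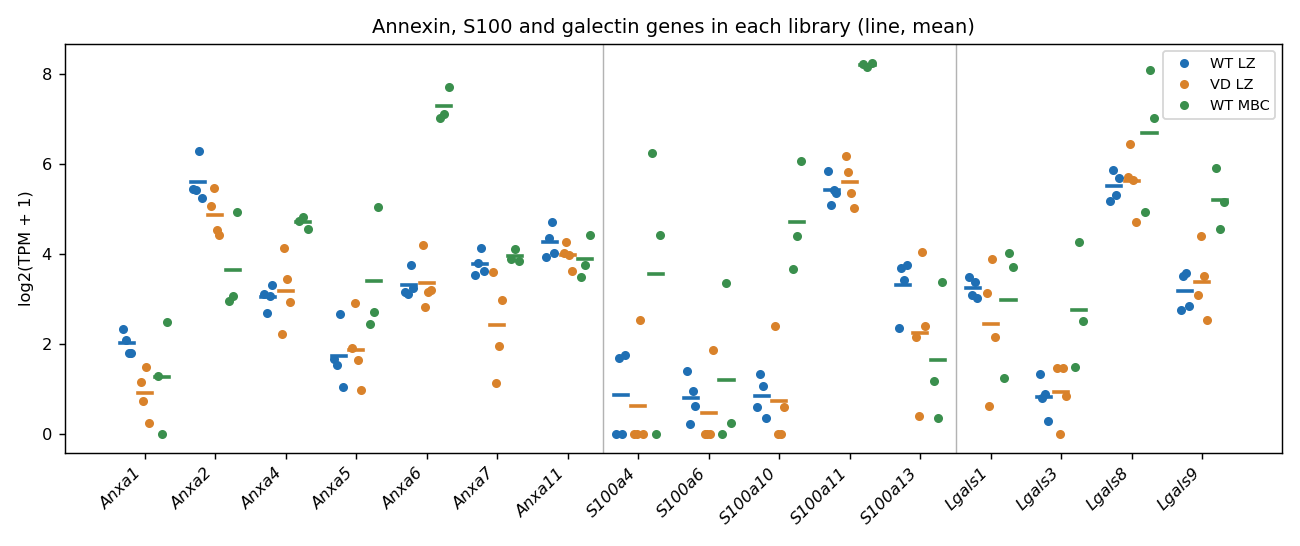
Levels in log2(TPM + 1) of 7 annexin, 5 S100 and 4 galectin genes in each library, with a line at the mean of Myc WT LZ, Myc VD LZ and Myc WT MBC libraries. Anxa6 and S100a11 of MBCs lie above both LZ groups without overlap, and Anxa2 of MBCs lies below the Myc WT LZ libraries.

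Of the cytoskeletal genes, 23 of 24 genes of the actin and membrane skeleton were tested, with 4 called higher and 1 lower. Capg, an actin-capping protein, stood at 16.44, 7.99, 11.15 and 7.04 TPM in Myc WT LZ libraries and at 128.34, 81.90 and 174.41 TPM in MBC libraries, a log2 difference of 3.47 (SE 0.40, adjusted p = 0.00251 by limma). The actin cross-linker Flna (1.69, adjusted p = 0.0218), the non-muscle myosin heavy chain Myh9 (1.24, adjusted p = 0.0316) and moesin, Msn (1.02, adjusted p = 0.0191), were also called higher by limma. Tmsb10, a binder of actin monomers, was called lower with a log2 difference of -0.90 (adjusted p = 0.0406 by limma). Of 10 other intermediate filament and linker genes 3 were tested. Plec, which encodes the linker plectin, was called higher at 1.98 (adjusted p = 0.0152 by limma), and the nuclear lamin gene Lmnb1 was called lower at -1.90 (adjusted p = 0.0304 by limma). With the mouse as a block, which also leaves out Myc WT LZ library 2, Flna (adjusted p = 0.0546 by limma), Myh9 (0.165), Msn (0.132), Tmsb10 (0.194), Plec (0.143) and Lmnb1 (0.118) lost their calls, and Capg (0.0138) did not. The differences were 1.76, 1.22, 0.96, -0.86, 2.03 and -2.0, the same as without that library and with no block. In that fit with no block these genes had also lost their calls, at adjusted p of 0.0613, 0.101, 0.0767, 0.128, 0.0613 and 0.0819 by limma. Of 8 LIM, AHNAK and EMP relatives 1 was tested and 0 were called.

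Myc VD LZ B cells were compared with Myc WT LZ B cells to ask whether the 10 genes differ at the LZ stage when MYC cannot bind MIZ1. None of the 8 genes tested was called, beside 0.00777% of the 12869 genes tested called higher and 0.0389% called lower. Limma called 6 genes in all and gave 2180 an unadjusted p under 0.05. Ahnak and S100a6 were below the filter of a mean of 1 TPM. Crip1 was the 1 gene of the 10 whose groups did not overlap, in the lower direction, beside 9.16% of all genes tested in that direction and 0.816% in the higher. The median difference over the 8 genes was -0.19 on the log2 scale, against -0.31 over all genes tested, so that the set lay above all genes. With ribosomal RNA genes removed, the order turned, at -0.29 over the 9 genes then tested and -0.05 over all genes. Ribosomal RNA, whose median share was 51.0% in Myc VD and 41.0% in Myc WT LZ libraries, enters the TPM scale. With ribosomal RNA genes removed and TPM rescaled, the difference was -0.82 for Crip1, -0.43 for Anxa2, 0.71 for Vim, 0.48 for S100a11 and 0.14 for Emp3, while it was -0.29 for S100a4, -0.12 for S100a10 and -0.64 for Lgals1. None was called.

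Crip1 stood at 319.46, 418.02, 404.51 and 383.05 TPM in Myc WT and at 199.66, 183.77, 256.09 and 94.74 TPM in Myc VD LZ libraries. The highest Myc VD library was below the lowest Myc WT library. The log2 difference was -1.13 (SE 0.28, 95% interval -1.73 to -0.52), which was -0.82 relative to the median of all genes, and the unadjusted p of 0.00162 became an adjusted p of 0.112 by limma. The adjusted p ran from 0.0654 to 0.442 over the alternatives, and the exact two-sided permutation test over libraries gave 0.0286. The sum over 6 plasma cell markers was also lower in each Myc VD LZ library, at 192.7 to 331.92 TPM, than in any Myc WT LZ library, at 401.33 to 611.98 TPM, and its part in the difference of Crip1 was not tested. Of these markers only Jchain and Mzb1 separated the groups, while Xbp1, Irf4, Prdm1 and Sdc1 overlapped, with the highest Irf4, Prdm1 and Sdc1 values in Myc VD libraries. In MBC libraries that sum was 344.3, 220.8 and 527.17 TPM. Crip1 levels in Myc VD LZ libraries overlapped those of MBCs, at 201.73 to 372.63 TPM, a pair of groups that was not tested.

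Anxa2 stood at 32.43, 42.85, 22.29 and 20.42 TPM in Myc VD LZ libraries, where 1 library overlapped the Myc WT range and the other 3 were below it, with a log2 difference of -0.73 (SE 0.31, adjusted p = 0.262 by limma), which was -0.42 relative to the median of all genes. The genes called higher in MBCs overlapped between Myc VD and Myc WT LZ libraries. Vim stood at 109.10, 53.59, 133.56 and 57.82 TPM, and its log2 difference was 0.40 (95% interval -0.34 to 1.14, adjusted p = 0.572 by limma), which was 0.71 relative to the median of all genes. S100a11 stood at 71.09, 55.73, 39.86 and 31.47 TPM, and its difference of 0.17 (95% interval -0.45 to 0.79, adjusted p = 0.79 by limma) was 0.48 relative to that median. The highest Vim level of a Myc VD library was below 390.47 TPM, the lowest in MBCs, and the same held for S100a11 against 284.50 TPM. Ahnak stood at 0.59, 0.03, 0.34 and 0.74 TPM and S100a10 at 4.26, 0, 0 and 0.51 TPM in Myc VD LZ libraries, all below the MBC range.

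S100a4 was listed at 0 in 3 of the 4 Myc VD LZ libraries and at 4.81 TPM in library 3, and S100a6 at 0 in 3 and at 2.66 TPM in library 4. Both ranges overlapped those of Myc WT LZ libraries. Lgals1 ran from 0.54 to 13.89 TPM (log2 difference -0.79, adjusted p = 0.519 by limma) and Emp3 from 9.46 to 30.89 TPM (-0.15, adjusted p = 0.852 by limma), with a wider spread among Myc VD than among Myc WT libraries. Of the related genes, 38 were tested and none was called, and 2 were called lower without Myc VD library 1, a fit in which 254 of 12846 genes were called in place of 6. The difference of Anxa6 was 0.03 (adjusted p = 0.97 by limma) and that of Anxa1 was -1.11 (adjusted p = 0.229 by limma), where each Myc VD library, at 0.19 to 1.82 TPM, was below each Myc WT library.

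Over the 11 libraries, the members did not all vary alike. The Pearson correlation of each gene with the mean standardized profile of the 10, which contains the gene itself, was 0.862 for S100a10, 0.834 for Vim, 0.808 for S100a11 and 0.794 for Ahnak, 0.74 for Emp3 and 0.55 for Lgals1. It was 0.448 for Crip1, 0.413 for S100a4, 0.318 for S100a6 and -0.416 for Anxa2, whose closest member was Crip1 at 0.259. The closest pairs were Ahnak and S100a11 at 0.946 and Vim and S100a11 at 0.922. Among 9191 genes whose mean reached 5 TPM, the 5 most like the profile were Slc9a3r1 (0.964), Rapgef1 (0.96), Lmo2 (0.956), Igkv10-96 (0.953) and Pacs1 (0.951). Slc9a3r1, which encodes a scaffold that binds ezrin and moesin, stood at 22.39 to 30.06 TPM in Myc WT LZ, 17.28 to 21.59 TPM in Myc VD LZ and 33.39 to 53.18 TPM in MBC libraries. These values are descriptions over libraries that fall into groups and share library depth and composition, and carry no test.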

How the data were processed

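RNA from sorted spleen B cells was sequenced after NuGEN cDNA preparation. Per the labels and the study's methods, the authors aligned reads with STAR 2.5.2a to GRCm38 and estimated strand-specific abundances with RSEM 1.3.0, and the deposited values are TPM, which sum to the same total in each library and hold no read depth. The submitters' notes also name DESeq2 1.18.1, whose results were not used here. Symbols came from GENCODE M21 (48349 of 48795 genes). Log2(TPM + 1) was fitted with limma 3.58.1 in R 4.3.3 (trend, no covariate) over genes whose mean reached 1 TPM, for 3 MBC against 4 LZ and for 4 Myc VD against 4 Myc WT libraries, with Benjamini-Hochberg adjustment over all genes and a threshold of 0.05. The exact permutation test used all 35 or 70 groupings of libraries and was two-sided. The code was tested on simulated data. Near-identical transcripts were sought with blastn 2.17.0. Promoter windows came from RefSeq. All members were named. Related genes were named if called (at most 4 per list) or if fixed paralogs, and profile neighbors as the 5 closest. The members and lists were chosen with earlier results of these data known. Libraries are separate mice within a group. MBC and LZ libraries 1, 3 and 4 share the mouse by their labels, which makes them pairs. Deviations of paired libraries from their group means correlated at 0.0042, 0.000933 and -0.0337. Numbers of Myc VD mice pair nothing. Alternatives changed pseudocount, filter, scaling, gene set, model and libraries. The SRBC dose differs between the labels and the methods and is not given.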

Additional observations from a re-analysis of the deposited data

Results flagged for a closer look

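In groups of 4 libraries, 6 of the 48 groups looked at held a library far from the other 3, where chance gives about 1 in 20 for normally distributed values with no ties. That share does not apply to S100a4 and S100a6, since any value above 0 stands apart from 3 libraries at 0. Nor does it apply to S100a10, where 2 of the Myc VD LZ libraries were tied at 0. S100a4 was listed at 4.81 TPM in Myc VD LZ library 3 and at 0 in the other 3. S100a6 stood at 2.66 TPM in Myc VD LZ library 4 with the other 3 at 0. S100a10 stood at 4.26 TPM in Myc VD LZ library 1, against 0.51 TPM or less in the others. The mean of each of these 3 genes was at most 1.2 TPM in either LZ group. Anxa2 stood at 76.88 TPM and Anxa6 at 12.48 TPM in Myc WT LZ library 3, the highest value of each annexin in that group. Plec stood at 13.55 TPM in Myc VD LZ library 3, against 7.70 to 8.46 TPM in the others.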

How the results depend on the processing

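Vim, Ahnak and S100a11 were called higher in MBCs under all 19 alternatives, with adjusted p up to 0.0138, 0.0383 and 0.0141 by limma. S100a10 lost its call in the fit with the mouse as a replicate block (adjusted p = 0.0542), where 3 of the 10 genes were called higher in place of 4, 2 related genes higher, 0 lower and 248 genes in all in place of 1219. That fit also leaves out the unpaired Myc WT LZ library 2. Without that library and with no block, 4 of the 10 genes and 2 related genes were called higher, 0 related genes lower and 342 genes in all. The count of the 10 genes called lower was 1, Anxa2, with a mean of at least 5 TPM, median ratio rescaling, quantile normalization, ribosomal RNA genes removed, all 3 groups in 1 fit and mice 1 to 3 only, an alternative added after seeing the data, and 0 to 1 with a library left out (Anxa2 without MBC library 4, Crip1 without MBC library 3). The median over the 10 genes was 1.53 to 1.76 with a library left out, except that S100a6 was not tested without MBC library 3 and with a mean of at least 5 TPM, where the median over the other 9 genes was 2.70 and 2.68. Related genes called higher were 4 without a filter, 3 in mice 1 to 3 and 2 to 10 with a library left out. Those called lower were 0 without a filter and without the trend, 1 without immunoglobulin and mitochondrial genes and 0 to 3 with a library left out. Genes called in all in MBCs were 608 without a filter, 410, 342, 375 and 519 without Myc WT LZ library 1, 2, 3 and 4, and 2754 without MBC library 4.

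In Myc VD LZ B cells none of the 10 genes was called under any of 18 alternatives, their median was -0.82 with a pseudocount of 0.1, 0.07 with quantile normalization and -0.45 to -0.02 with a library left out, and 0 to 2 related genes were called lower with a library left out. Genes called in all were 6, 0 to 15 with other settings and 0 to 254 with a library left out, 254 being without Myc VD library 1. Signs turned only for differences that no fit called. In MBCs these were S100a6 (-0.22 with a pseudocount of 0.1) and Lgals1 (-0.77 to 0.62 with a library left out). In Myc VD they were S100a4 (0.05 with quantile normalization), S100a10 (0.03 with a pseudocount of 5 and 0.23 with quantile normalization), and Emp3 (0.17 with median ratio rescaling, 0.09 with quantile normalization and 0.14 without ribosomal RNA genes). With a library left out, Myc VD differences ran from -0.52 to 0.07 for S100a4, -0.26 to 0.15 for S100a10, -0.02 to 0.36 for S100a11, 0.17 to 0.60 for Vim, -1.27 to -0.18 for Lgals1, -0.45 to 0.09 for Emp3, -0.21 to 0.45 for Anxa5 and -0.25 to 0.21 for Anxa6. The median over all genes in Myc VD moved from -0.31 to -0.01 with median ratio rescaling and with quantile normalization. The cause of these changes was not tested. TPM hold no depth, so a value of 0 has no counting limit.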
